A study of Homo sapiens with 6 samples.

Results

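Acetylcholine genes and neuronal nicotinic receptor subunits were read in 6 RNA libraries of human neuroblastoma cell lines. The set was 9 of the 25370 rows of the deposited count table, taken by gene symbol. It comprised CHAT, SLC18A3, SLC5A7 and ACHE, which make, store, recapture the precursor of and break down acetylcholine, and the nicotinic subunits CHRNA3, CHRNA5, CHRNA7, CHRNB2 and CHRNB4. The libraries were BE2C cells with forced overexpression of LMO1 (2 libraries), Kelly cells (1 library), unmodified BE2C cells, called parental here (1 library), and BE2C cells carrying a vector control (2 libraries). BE2C and Kelly are established neuroblastoma lines with MYCN amplification, and BE2C was derived as a single clone of an older line. LMO1 is a LIM-domain co-regulator that joins transcription factor complexes, and the study set LMO1 beside MYCN in neuroblastoma. The promoter that drove LMO1 in the modified cells was not given in the sources used here.

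Acetylcholine is made from choline and acetyl-CoA by choline acetyltransferase (CHAT), loaded into vesicles by the transporter encoded by SLC18A3, and hydrolysed by acetylcholinesterase (ACHE). SLC5A7 encodes the high-affinity transporter that returns choline to the nerve ending. Neuronal nicotinic receptors are ligand-gated cation channels built of alpha and beta subunits, and receptors with CHRNA3 and CHRNB4 products carry fast transmission in autonomic ganglia. Neuroblastoma arises from the sympathoadrenal lineage, in which most neurons become noradrenergic and a minority become cholinergic. CHAT and SLC18A3 form a shared locus on chromosome 10, where SLC18A3 lies inside CHAT on the same strand. CHRNA5, CHRNA3 and CHRNB4 are neighbours on chromosome 15, and CHRNA7 lies elsewhere on that chromosome.

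Promoter windows of 4 members are shown because they belong to both gene groups that share a locus. RefSeq (GRCh38.p14) gave a window of 250 bases before to 50 after a gene start for 8 of the 9 members, and CHRNA5 had no entry. The CHAT window is that of its first listed start, upstream of SLC18A3. Capitals mark the GC box GGGCGG on either strand and, in CHRNB4, the E-box CAGCTG.
CHAT, chr10:49608845-49609144, + strand: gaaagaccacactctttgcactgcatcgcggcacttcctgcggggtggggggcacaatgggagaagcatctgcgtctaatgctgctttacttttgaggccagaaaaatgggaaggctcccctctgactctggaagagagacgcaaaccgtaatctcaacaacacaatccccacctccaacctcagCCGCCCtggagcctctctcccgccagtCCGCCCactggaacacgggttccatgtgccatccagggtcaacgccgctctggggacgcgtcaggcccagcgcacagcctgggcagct
SLC18A3, chr10:49610060-49610359, + strand: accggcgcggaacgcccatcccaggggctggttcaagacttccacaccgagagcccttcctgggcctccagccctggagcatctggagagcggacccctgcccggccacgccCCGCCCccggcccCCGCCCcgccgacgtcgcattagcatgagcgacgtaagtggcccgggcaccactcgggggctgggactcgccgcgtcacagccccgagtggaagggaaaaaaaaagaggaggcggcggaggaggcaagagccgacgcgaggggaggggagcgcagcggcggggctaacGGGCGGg
CHRNA3, chr15:78620947-78621246, - strand: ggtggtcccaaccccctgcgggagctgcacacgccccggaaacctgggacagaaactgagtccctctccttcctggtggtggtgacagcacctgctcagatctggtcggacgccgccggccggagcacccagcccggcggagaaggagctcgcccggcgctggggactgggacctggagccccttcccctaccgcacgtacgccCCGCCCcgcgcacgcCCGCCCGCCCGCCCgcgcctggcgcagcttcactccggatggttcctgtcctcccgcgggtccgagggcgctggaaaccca
CHRNB4, chr15:78641161-78641460, - strand: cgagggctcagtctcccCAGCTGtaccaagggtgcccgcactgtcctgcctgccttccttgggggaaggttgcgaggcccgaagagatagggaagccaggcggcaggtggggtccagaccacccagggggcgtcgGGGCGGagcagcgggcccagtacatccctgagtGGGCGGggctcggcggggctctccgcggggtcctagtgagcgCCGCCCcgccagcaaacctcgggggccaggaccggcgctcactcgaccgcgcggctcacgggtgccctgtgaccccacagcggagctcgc
The windows held 2 GC boxes for CHAT, 3 for SLC18A3, 4 for CHRNA3, of which neighbouring ones overlap, and 3 for CHRNB4. A GC box was present in 45% of all 35116 RefSeq windows, and CAGCTG in 17.9%. The E-box CACGTG (in 7.26% of all windows) and the GATA core GATAA (22.7%) were found in none of the 4. The counts behind the values below were made on hg19, so these positions serve only to place the sequences.

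Library totals ran from 18737591 to 59512958 counts. LMO1 itself was at 6.55 and 5.85 CPM in the LMO1 libraries, 94.1 CPM in Kelly, 1.93 CPM in parental cells and 1.05 and 0.926 CPM in the vector libraries, where CPM is the library-size-normalised count (TMM scaling over all libraries). Its log2 fold change with LMO1 over vector was 2.65 (SE 0.27, edgeR adjusted p = 3.46e-11). MYCN was at 1597 ± 55.0 CPM with LMO1, against 1658 ± 10.4 CPM with vector (SD, n = 2 each). All 11 neuroblastoma identity markers, among them HAND2 and GATA3, had at least 5 CPM in Kelly or parental cells. TH reached this only in Kelly (405 CPM), with 3.08 CPM in parental cells and 1.61 CPM with vector. Of the 11, 4 were called higher with LMO1 and 5 lower, where 15.9% and 15.1% of all 15480 genes tested were. In Kelly 3 were at least 2-fold higher than in parental cells and 3 at least 2-fold lower, where 15.3% and 13.4% of 12387 genes were. Markers of blood cells summed to 10.7 to 12.8 CPM per library, with 2 of 8 at no read, and PTPRC had 0 to 7 counts. Skeletal muscle markers summed to 34.7 CPM in Kelly and 7.33 to 11.1 CPM in the BE2C libraries. Schwann markers summed to 65.9 CPM in Kelly and 102 to 155 CPM in BE2C, most of it PMP22. With LMO1, 2 of the 6 Schwann markers tested were called higher, PMP22 by 0.26 on the log2 scale (edgeR adjusted p = 2.97e-06) and the low GFAP (1.46 CPM, against 0.390 CPM with vector, edgeR adjusted p = 0.00187). The GFAP call was lost without LMO1 replicate 2 (edgeR adjusted p = 0.0827), and GFAP passed the low-count limit in 1 vector library. Fibroblast and endothelial markers summed to 136 and 135 CPM with LMO1, 171 CPM in Kelly, 259.8 CPM in parental cells and 203 CPM in both vector libraries. Of the 8 tested, 3 were called higher with LMO1, among them DCN (0.84, edgeR adjusted p = 1.24e-10) and LUM (1.06, edgeR adjusted p = 2.14e-09), and 3 lower, among them ACTA2 (-1.89, edgeR adjusted p = 1.12e-27) and COL3A1 (-1.80, edgeR adjusted p = 8.31e-17). In Kelly 1 of 6 was at least 2-fold higher than in parental cells and 4 at least 2-fold lower, with DCN at 0.201 CPM in Kelly cells, against 102 CPM in parental BE2C. The part of these markers in the values of the acetylcholine and nicotinic genes was not tested. In cell lines sequenced in bulk, fewer cells with a transcript and less transcript per cell cannot be told apart.

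**Figure D1:**
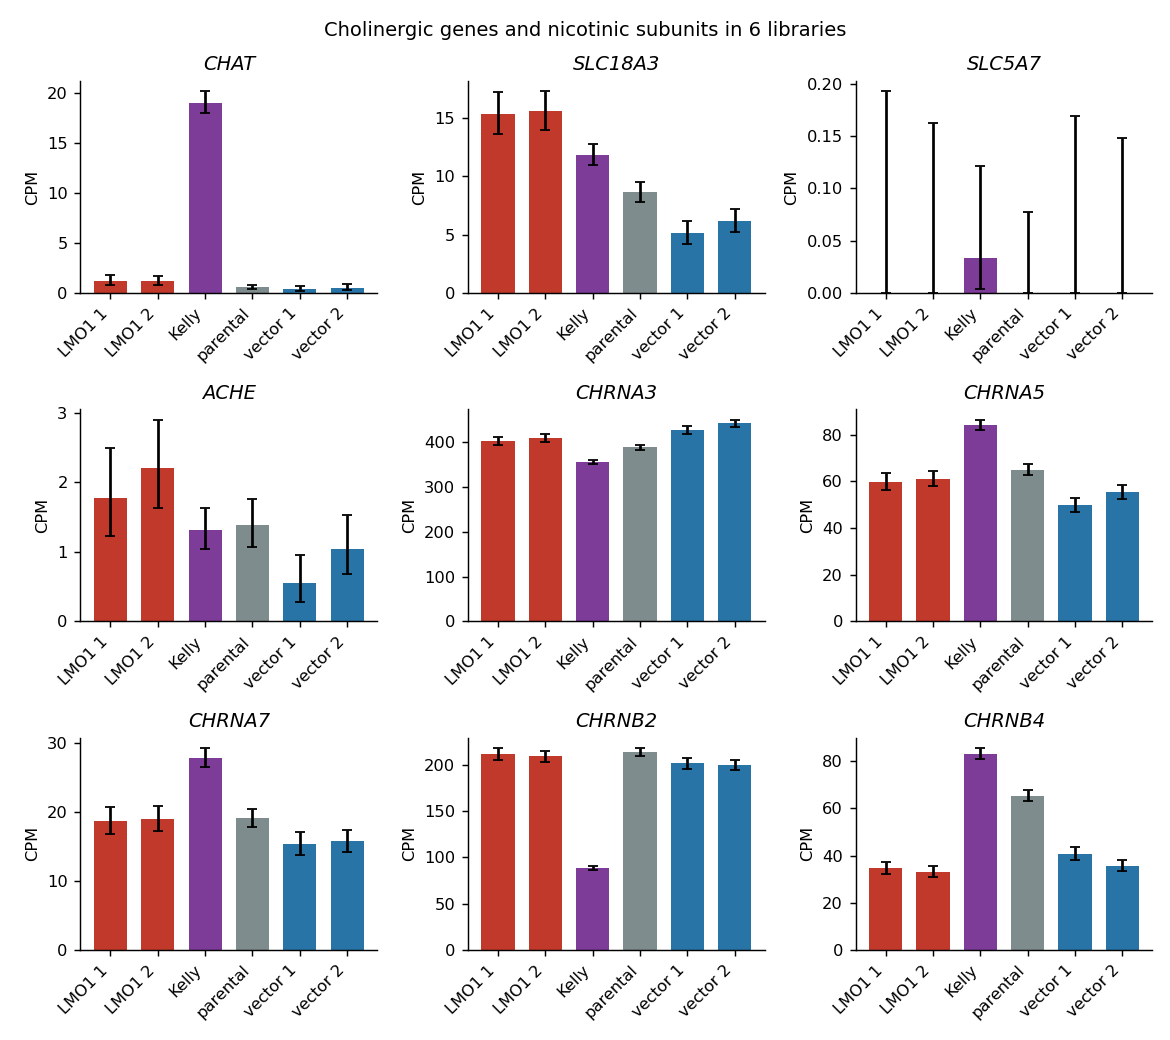
CPM (y axis, linear, from 0) of the 9 genes in each library (x axis), with exact 95% Poisson intervals as error bars, which cover counting error only. CHAT stands far higher in Kelly (19.0 CPM) than in the BE2C libraries, SLC18A3 is highest in the LMO1 libraries, and CHRNB2 is lowest in Kelly (88.4 CPM).

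The acetylcholine genes other than SLC5A7 were higher in LMO1 cells than in vector cells. This comparison asks what forced LMO1 does within one line. SLC18A3, the vesicular acetylcholine transporter, was at 15.3 and 15.6 CPM in the LMO1 libraries, against 5.13 and 6.16 CPM in the vector libraries. The groups did not overlap, and the gap was far larger than the spread within either. Both LMO1 libraries lay above both vector libraries for 31.3% of the 15480 genes tested. SLC18A3 rose by 1.45 on the log2 scale (SE 0.146, edgeR adjusted p = 2.36e-11). CHAT, the synthesising enzyme, had 23 and 27 counts in the LMO1 libraries (1.20 and 1.19 CPM), against 8 and 13 counts in the vector libraries (0.367 and 0.523 CPM). These low values did not overlap either, with a log2 fold change of 1.41 (SE 0.491, edgeR adjusted p = 0.024). Their counting intervals did, with 0.763 to 1.81 CPM for LMO1 replicate 1 and 0.279 to 0.895 CPM for vector replicate 2. ACHE, the hydrolysing enzyme, had 34 and 50 counts in the LMO1 libraries (1.78 and 2.20 CPM), against 12 and 26 counts in the vector libraries (0.550 and 1.05 CPM). On the log2 scale the difference was 1.31 (SE 0.397, edgeR adjusted p = 0.00925). The ACHE counting intervals of LMO1 replicate 1 (1.23 to 2.49 CPM) and vector replicate 2 (0.684 to 1.53 CPM) overlapped as well. CHAT reached the low-count limit in both LMO1 libraries and in 1 vector library, so it was tested only through its level with LMO1.

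The CHAT call was lost when any 1 of the libraries was left out, with edgeR adjusted p = 0.118 and 0.121 without LMO1 replicates 1 and 2, and 0.197 and 0.0775 without vector replicates 1 and 2. DESeq2 gave an adjusted p of 0.137 for CHAT and 0.0697 for ACHE. ACHE lost its call without LMO1 replicate 2 (edgeR adjusted p = 0.145) and without vector replicate 1 (edgeR adjusted p = 0.148). Over all 12 alternatives the log2 fold change ran from 1.19 to 1.69 for CHAT (adjusted p from 0.005 to 0.197) and from 0.94 to 1.85 for ACHE (adjusted p from 0.00469 to 0.148). SLC5A7 had no read in any BE2C library and 2 reads in Kelly, and was not tested. A floor of 3 counts is 0.0628 CPM for the parental library and 0.157 CPM for the smallest one. The exact 95% intervals of a count of 0 reach somewhat higher, to 0.0772 and 0.193 CPM. SLC5A7 RNA was thus not detectable at this depth in BE2C.

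Of the 5 nicotinic subunits, CHRNA5 and CHRNA7 were called higher with LMO1 and CHRNA3 lower, all by small amounts. CHRNA3, the ganglionic alpha subunit, was at 402 and 409 CPM in the LMO1 libraries, against 428 and 442 CPM in the vector libraries. It fell by 0.09 on the log2 scale (SE 0.0297, edgeR adjusted p = 0.0117), a difference of the same order as the gap between the 2 vector libraries. CHRNA5, an accessory subunit that modifies receptors built on other alpha subunits, was at 60.0 and 61.0 CPM in the LMO1 libraries, against 49.8 and 55.5 CPM in the vector libraries. It rose by 0.21 (SE 0.0649, edgeR adjusted p = 0.0123). CHRNA7, which forms receptors of a single subunit type, was at 18.7 and 18.9 CPM in the LMO1 libraries, against 15.4 and 15.7 CPM in the vector libraries. It rose by 0.28 (SE 0.109, edgeR adjusted p = 0.0441).

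The beta subunits missed the threshold. CHRNB2 was at 212 and 209 CPM in the LMO1 libraries, against 202 and 199.8 CPM in the vector libraries (log2 fold change 0.08, SE 0.036, edgeR adjusted p = 0.111). CHRNB4 was at 34.7 and 33.2 CPM in the LMO1 libraries, against 40.8 and 35.6 CPM in the vector libraries (log2 fold change -0.16, SE 0.0799, edgeR adjusted p = 0.122). Neither pair of groups overlapped. Over the 15480 genes tested, both LMO1 libraries lay above both vector libraries for 31.3% of genes and below them for 32.4%.

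CHRNA7 lost its call without any 1 of the libraries, with edgeR adjusted p from 0.0945 to 0.161, and with DESeq2 (adjusted p = 0.181), over a range of 0.0286 to 0.181 for all alternatives. CHRNA5 lost its call with DESeq2 (adjusted p = 0.0812), without LMO1 replicate 1 or 2 (edgeR adjusted p = 0.0531 and 0.0865) and without vector replicate 1, where the log2 value was 0.13 (edgeR adjusted p = 0.269, range 0.00539 to 0.269). The CHRNA3 call was lost with total-count scaling (edgeR adjusted p = 0.0756) and without vector replicate 2 (edgeR adjusted p = 0.229, range 0.00182 to 0.229). CHRNB4 was called lower only without vector replicate 2 (log2 -0.26, edgeR adjusted p = 0.0356, range to 0.708) and CHRNB2 higher only with total-count scaling (edgeR adjusted p = 0.0276, range to 0.412).

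Counted together, 5 of the 8 members tested were called higher and 1 lower, in a fit that called 15.9% of 15480 genes higher and 15.1% lower. The median log2 fold change was 0.24 over the 8 members and 0.00 over all genes tested. Both the 5 and this median include CHAT, which was tested only through its level with LMO1. The CHAT call thus cannot serve as support for a rise of the set. SLC18A3 was the single member called higher in all 12 alternatives.

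The parental library gave the levels of these genes in unmodified BE2C cells. Its ratios to vector share the vector libraries with the LMO1 ratios, so each is given as its own value. SLC18A3 was at 8.64 CPM in parental cells, 1.53-fold the vector mean (95% counting interval 1.30 to 1.78), against a fitted 2.74-fold in LMO1 cells over vector. CHAT was at 0.565 CPM in parental cells, 1.27-fold the vector mean (0.684 to 2.34), against 2.66-fold in LMO1 cells. ACHE was at 1.38 CPM in parental cells, 1.73-fold the vector mean (1.12 to 2.60), against 2.47-fold in LMO1 cells. For these genes both LMO1 libraries stood above the parental library as well as above vector.

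For the alpha subunits the parental library lay on the same side of vector as the LMO1 libraries and at least as far from it. CHRNA3 was at 389 CPM in parental cells, below both LMO1 and both vector libraries. CHRNA5 was at 65.1 CPM and CHRNA7 at 19.0 CPM in parental cells, above all 4 modified libraries. CHRNB4 was at 65.3 CPM in parental cells, 1.71-fold the vector mean (1.62 to 1.82), and it showed the widest gap of any subunit between the parental and the modified cells. CHRNB2 was at 214 CPM in parental cells. No member differed by 2-fold or more between parental cells and vector, against a background of 8.79% of 11727 genes with a 2-fold higher value and 2.58% with a 2-fold lower one. With 1 parental library these ratios have no replicate check. The parental library was also deeper, at 48663459 counts, against 18737591 to 25070942 counts in the modified libraries. A difference between sets of libraries cannot be told apart here from a difference between parental and modified cells.

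**Figure D2:**
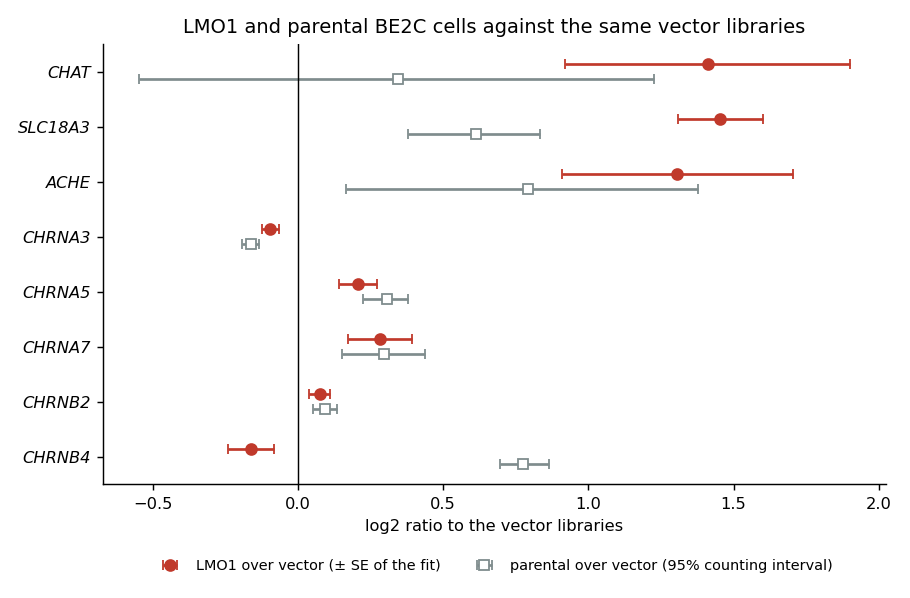
Log2 ratio to the vector libraries (x axis) for the 8 members tested (y axis), with LMO1 cells as filled circles (± SE of the edgeR fit) and parental cells as open squares (95% counting interval of the plain CPM ratio). CHAT, SLC18A3 and ACHE lie further right in LMO1 than in parental cells, while the parental squares of CHRNA3, CHRNA5 and CHRNA7 lie as far from 0 as the LMO1 circles or further; the CHRNB4 square stands to the right of 0 and its circle to the left.

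Kelly cells, which carry far more LMO1 RNA, were set against parental BE2C to compare the lines. Each side had 1 library, so no test was made and intervals cover counting error only. CHAT was at 19.0 CPM in Kelly cells, against 0.565 CPM in parental BE2C, giving a ratio of 33.7 (95% interval 23.0 to 51.4). SLC18A3 was at 11.8 CPM in Kelly cells, against 8.64 CPM in parental BE2C, giving a ratio of 1.37 (1.21 to 1.55), and the Kelly value lay within the range of the BE2C libraries. ACHE was at 1.31 CPM in Kelly cells, against 1.38 CPM in parental BE2C, giving a ratio of 0.948 (0.674 to 1.34). The lines thus differed in CHAT far beyond counting error, while ACHE showed no detectable difference.

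Among the subunits, CHRNB2 was the one with a difference of 2-fold or more, at 88.4 CPM in Kelly cells, against 214 CPM in parental BE2C (ratio 0.413, 95% interval 0.400 to 0.427). CHRNB4 was at 83.3 CPM in Kelly cells, against 65.3 CPM in parental BE2C (ratio 1.28, 1.22 to 1.33). CHRNA5 was at 84.2 CPM in Kelly cells, against 65.1 CPM in parental BE2C (ratio 1.29, 1.24 to 1.35). CHRNA7 was at 27.8 CPM in Kelly cells, against 19.0 CPM in parental BE2C (ratio 1.46, 1.35 to 1.59). CHRNA3 differed least of the subunits, with 356 CPM in Kelly cells, against 389 CPM in parental BE2C (ratio 0.916, 0.898 to 0.934).

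Of the 7 members with at least 5 CPM in either line, 1 was at least 2-fold higher in Kelly (CHAT) and 1 at least 2-fold lower (CHRNB2), where 15.3% and 13.4% of 12387 genes were. Kelly lay above all 5 BE2C libraries in 4 members (CHAT, CHRNA5, CHRNA7, CHRNB4) and below them in 2 (CHRNA3, CHRNB2), and over the table it lay above in 41.1% of genes and below in 36.7%. Against the vector mean in place of the parental library, CHRNB4 also passed 2-fold, with a log2 ratio of 1.10 against 0.35 (log2 of CPM with 1 added).

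The ratio of CHAT to SLC18A3 did not differ beyond counting error among the BE2C libraries and was far higher in Kelly. CHAT had only 8 to 27 counts in each BE2C library, so a moderate change of the ratio among them could go unseen. Per kilobase of exon, the CHAT level divided by the SLC18A3 level was 0.0637 and 0.0619 in the LMO1 libraries, 1.31 in Kelly, 0.0530 in parental cells and 0.0579 and 0.0689 in the vector libraries. The counting intervals of the BE2C libraries overlapped one another, between 0.0244 and 0.121 in all, and that of Kelly ran from 1.19 to 1.44. SLC18A3 RNA was thus 14.5 to 18.9 times as abundant as CHAT RNA per kilobase in BE2C cells, LMO1 libraries included, and less abundant than CHAT in Kelly. Because SLC18A3 lies within CHAT on the same strand, reads of the 2 genes may not be fully separated, although their exons do not overlap in GENCODE 29 and no 50-base word of either occurs in another gene.

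**Figure D3:**
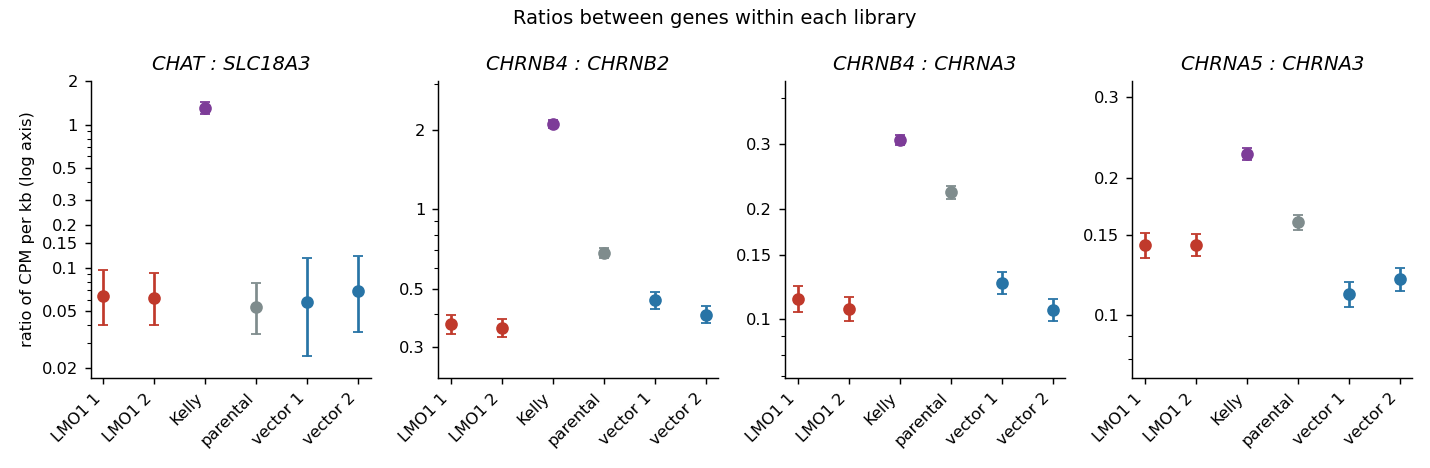
Ratio of the levels of 2 genes (CPM per kilobase of exon, y axis, log scale) in each library (x axis), with 95% exact intervals for counting error. The CHAT to SLC18A3 ratio is 1.31 in Kelly and 0.0530 to 0.0689 in the BE2C libraries, and all 3 ratios between nicotinic subunits are highest in Kelly, with parental cells next.

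The make-up of the nicotinic subunit RNA differed between Kelly and BE2C mainly in its beta subunits. CHRNB4 divided by CHRNB2, per kilobase, was 2.11 in Kelly (95% interval 2.03 to 2.19) and 0.683 in parental cells (0.656 to 0.711). The ratio was 0.367 and 0.355 in the LMO1 libraries, against 0.452 and 0.399 in the vector libraries. CHRNB4 was therefore the more abundant beta subunit RNA in Kelly and CHRNB2 in every BE2C library. Of the summed level of the 5 subunits per kilobase, CHRNB2 made up 8.49% in Kelly and 18.7% in parental cells, and CHRNB4 made up 17.9% in Kelly and 12.8% in parental cells. CHRNA3 was the leading subunit in every library, at 62.9% and 63.5% with LMO1, 58.1% in Kelly, 57.8% in parental cells and 65.2% and 66.2% with vector. CHRNA7 held the smallest share, from 1.23% in a vector library to 2.39% in Kelly. The summed level itself varied little, from 177 CPM per kilobase in Kelly to 195 in parental cells.

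**Figure D4:**
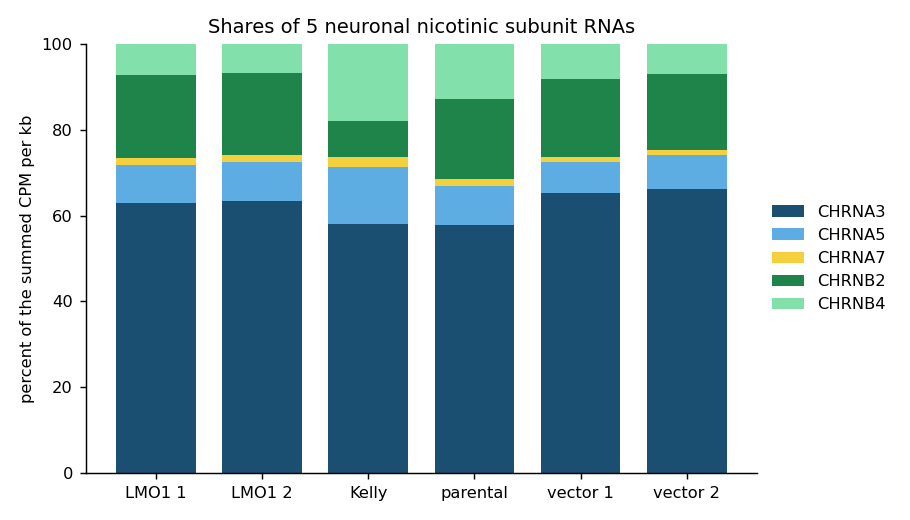
Share of each of 5 nicotinic subunits in their summed CPM per kilobase of exon (y axis, percent) in each library (x axis). CHRNA3 makes up 57.8% to 66.2% everywhere, the CHRNB2 share is 8.49% in Kelly and 17.6% to 19.5% in BE2C, and the CHRNB4 share is highest in Kelly (17.9%) and parental cells (12.8%).

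Within the CHRNA5, CHRNA3 and CHRNB4 cluster the genes did not keep fixed proportions. CHRNA5 divided by CHRNA3, per kilobase, was 0.142 in both LMO1 libraries, against 0.111 and 0.120 in the vector libraries, and it was 0.226 in Kelly and 0.160 in parental cells. The intervals of the LMO1 libraries (0.134 to 0.151 over both) lay above those of the vector libraries (0.104 to 0.127). CHRNB4 divided by CHRNA3 was 0.114 and 0.107 in the LMO1 libraries, 0.308 in Kelly, 0.221 in parental cells and 0.126 and 0.106 in the vector libraries. For this pair the LMO1 values lay within the range of the vector values. Other genes around the cluster on chromosome 15, such as IREB2 and PSMA4, gave 1 higher and 1 lower of 11 tested with LMO1. The shares over all 15480 genes tested were 15.9% and 15.1%. MORF4L1, a chromatin protein, fell by 0.08 (SE 0.0322, edgeR adjusted p = 0.0461), and RASGRF1 was called higher at 0.644 CPM with LMO1, against 0.172 CPM with vector (edgeR adjusted p = 0.0287). RASGRF1 passed the low-count limit in both LMO1 libraries and in 0 vector libraries, so it too was tested only through its level with LMO1. Both calls were lost without any 1 library, with highest adjusted p of 0.309 and 0.205. ADAMTS7, a metalloprotease gene near CHRNB4, was at 21.4 CPM in Kelly cells, against 91.8 CPM in parental BE2C, and CRABP1 at 134 CPM in Kelly, against 77.7 CPM in parental cells. CTSH was at 17.1 CPM in Kelly, against 8.54 CPM in parental cells, but the other BE2C libraries reached 16.3 CPM.

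Per kilobase, the order of the members in LMO1 cells was CHRNA3 (117 ± 1.36 CPM per kilobase), CHRNB2 (35.9 ± 0.274), CHRNA5 (16.7 ± 0.205), CHRNB4 (12.9 ± 0.412), SLC18A3 (6.39 ± 0.0699), CHRNA7 (2.85 ± 0.0203), ACHE (0.618 ± 0.0924) and CHAT (0.401 ± 0.00377; SD, n = 2). In vector cells CHRNB4 (14.6 ± 1.39) and CHRNA5 (14.5 ± 1.12) did not differ beyond their spread, nor did CHRNA7 (2.36 ± 0.0372) and SLC18A3 (2.33 ± 0.30), or ACHE (0.248 ± 0.109) and CHAT (0.149 ± 0.0371; SD, n = 2). In Kelly the order was CHRNA3, CHRNB4, CHRNA5, CHRNB2, CHAT (6.39), SLC18A3 (4.88), CHRNA7 (4.23) and ACHE (0.407), with SLC5A7 last at 2 reads. Exon lengths came from GENCODE 29, a later annotation than the counts, so levels between genes are approximate.

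CHRNA7 shares sequence with CHRFAM7A, a partial duplicate fused to other sequence. Of the 21944 50-base words of CHRNA7, 5223 occur in other genes, and 23.7% of all its words occur in CHRFAM7A transcripts. The CHRNA7 exon length used here was 6584 bases, far fewer than its words. The shared part of the counted exons may thus be larger than 23.7%, and its size was not tested. The split of reads between CHRNA7 and CHRFAM7A is uncertain, and with it every CHRNA7 value above. CHRFAM7A was at 3.14 and 2.16 CPM with LMO1, 9.65 CPM in Kelly, 2.76 CPM in parental cells and 1.88 and 1.93 CPM with vector. CHRNA5 and CHRNA3 overlap by 100 exon bases on opposite strands, which is 2.89% of the CHRNA3 exons. An annotated antisense gene that is no row of the table covers 23% of the CHRNA5 exon bases and another 5.47% of those of CHRNB2. The libraries were stranded, but the strand setting of the counting was not given, so reads of such partners may be included.

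None of the 4 other nicotinic subunit genes that were tested, of 12, was called, and 0 had an unadjusted p under 0.05 with edgeR, with 0 called by DESeq2 or limma-voom. CHRNA2, chosen after its values were seen, had 14 and 7 counts with LMO1, 175 in Kelly, 10 in parental cells and 0 and 0 with vector, and was below the limit for a test. CHRNA4, chosen in the same way, had 11 and 7 counts with LMO1, 234 in Kelly, 36 in parental cells and 4 and 1 with vector, and was not tested either. CHRNB1, the muscle-type beta subunit, was at 6.76 CPM in Kelly cells, against 4.90 CPM in parental BE2C. Among muscarinic receptors, the G-protein-coupled acetylcholine receptors, 1 of 4 tested was called. Over all 15480 genes tested, 15.9% were called higher and 15.1% lower. CHRM2 was at 0.890 and 2.11 CPM in the LMO1 libraries, against 3.89 and 4.31 CPM in the vector libraries, and fell by 1.41 (SE 0.296, edgeR adjusted p = 0.000179), with -2.19 without LMO1 replicate 2 and -0.95 without LMO1 replicate 1, and was called in all 12 alternatives. CHRM1 was at 0.503 CPM in Kelly cells, against 6.13 CPM in parental BE2C, and CHRM3 at 12.9 CPM in Kelly cells, against 7.35 CPM in parental BE2C. For CHRM3 and CHRNB1 the Kelly value lay within the range of the BE2C libraries.

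BCHE, butyrylcholinesterase, was the more abundant cholinesterase RNA in every library. Its level per kilobase was 74.6 and 73.7 CPM with LMO1, 20.7 in Kelly, 71.3 in parental cells and 63.2 and 67.0 with vector, while ACHE was at most 0.684 CPM per kilobase. BCHE rose by 0.19 with LMO1 (SE 0.0392, edgeR adjusted p = 0.000102) and was called in all 12 alternatives. COLQ, the collagen tail that anchors acetylcholinesterase, was at 2.03 CPM with LMO1, against 0.918 CPM with vector (log2 fold change 1.14, SE 0.375, edgeR adjusted p = 0.0162), and its call was lost with DESeq2 and without any 1 library (adjusted p up to 0.134). COLQ was at 12.1 CPM in Kelly cells, against 1.97 CPM in parental BE2C. PRIMA1, the membrane anchor of acetylcholinesterase, was at 22.5 CPM in Kelly, 44.1 CPM in parental cells, 6.65 and 7.48 CPM with LMO1 and 9.16 and 8.17 CPM with vector. LRP4, the agrin receptor of the neuromuscular junction, was at 18.6 CPM in Kelly cells, against 3.43 CPM in parental BE2C. AGRN, its ligand, was at 55.5 CPM in Kelly cells, against 120 CPM in parental BE2C, and rose with LMO1 by 0.19 (SE 0.0681, edgeR adjusted p = 0.029), a call lost without any 1 library, with DESeq2 and with no low-count filter (adjusted p up to 0.186). The modified libraries had 44.0 to 51.0 CPM of AGRN, all below Kelly, so the lower value in Kelly rests on the parental library and turns round against vector. COLQ in parental cells (1.97 CPM) was at the level of the LMO1 libraries. The skeletal muscle marker TNNT1 was at 24.2 CPM in Kelly cells, against 2.26 CPM in parental BE2C. MYH3 was at 8.02 CPM in Kelly cells, against 1.74 CPM in parental BE2C. Both moved with COLQ and LRP4 between the lines, and TNNT1 was also higher with LMO1 (7.14 CPM, against 3.22 CPM with vector). DES went the other way, at 0.285 CPM in Kelly cells, against 1.63 CPM in parental BE2C. It was called lower with LMO1 (log2 fold change -1.03, SE 0.307, edgeR adjusted p = 0.00763), also in 10 of 12 alternatives. CKM was lower in Kelly as well, at 0.302 CPM, against 0.586 CPM in parental cells. The part of these markers in the COLQ and LRP4 values was not tested.

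Several genes for assembly of nicotinic receptors differed between the lines. TMEM35, which encodes a chaperone for nicotinic receptors including those of CHRNA7, had 1028 counts in Kelly (17.3 CPM) and 4 in parental cells (0.0837 CPM), and 0 to 4 in each modified library. RIC3, another chaperone of these receptors, was at 44.2 CPM in Kelly cells, against 19.3 CPM in parental BE2C. It was at 20.6 CPM with LMO1, against 16.8 CPM with vector (log2 fold change 0.30, SE 0.107, edgeR adjusted p = 0.0292), and this call was lost with DESeq2 and without LMO1 replicate 1 or vector replicate 1 (adjusted p = 0.145, 0.196 and 0.243). VSNL1, a calcium sensor, was at 11.2 CPM in Kelly cells, against 0.712 CPM in parental BE2C. LY6E, of the Ly6 family, rose with LMO1 by 0.22 (SE 0.0583, edgeR adjusted p = 0.00315) and lost its call without vector replicate 2 (adjusted p = 0.0862). In all, 2 of 7 tested genes of this list were called higher with LMO1 and 0 lower, and 3 of 7 were at least 2-fold higher in Kelly. Over the table, 15.9% of tested genes were called higher with LMO1 and 15.1% lower, and 15.3% were at least 2-fold higher in Kelly.

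For the supply of choline and acetyl-CoA, 1 of 15 tested genes was called higher with LMO1 and 2 lower, where 15.9% and 15.1% of 15480 were. SLC44A2, a choline transporter-like protein, was at 27.0 CPM with LMO1, against 13.7 CPM with vector, and rose by 0.98 (SE 0.107, edgeR adjusted p = 2.27e-10). The parental library, at 28.8 CPM, lay at the LMO1 level of SLC44A2. PDHB, a subunit of pyruvate dehydrogenase, fell by 0.25 (SE 0.0743, edgeR adjusted p = 0.00807) and lost its call with DESeq2, without LMO1 replicate 1 and without vector replicate 1 (adjusted p up to 0.147). ACLY, which makes cytosolic acetyl-CoA, fell by 0.07 (SE 0.0279, edgeR adjusted p = 0.0498), and 7 of 12 alternatives did not call it. PCYT1B, of phosphatidylcholine synthesis, was at 35.5 CPM in Kelly cells, against 0.586 CPM in parental BE2C, SLC44A5 at 47.6 CPM in Kelly cells, against 2.72 CPM in parental BE2C, and SLC44A1 at 32.8 CPM in Kelly cells, against 87.6 CPM in parental BE2C.

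Transcription factors of autonomic and cholinergic neurons gave 2 higher and 6 lower of 17 tested with LMO1. The shares over all 15480 genes tested were 15.9% higher and 15.1% lower. ISL1, a LIM-homeodomain factor of motor and cholinergic neurons, was at 143 CPM with LMO1, against 119 CPM with vector, and rose by 0.27 (SE 0.0442, edgeR adjusted p = 3.04e-06), while parental cells had 72.7 CPM. HAND1, a basic helix-loop-helix factor, fell by 0.22 (SE 0.0429, edgeR adjusted p = 4.62e-05), and RCOR1, a partner of the neuronal gene repressor REST, by 0.26 (SE 0.0507, edgeR adjusted p = 4.88e-05). RCOR1 was at 31.4 CPM in Kelly cells, against 149 CPM in parental BE2C, and POU4F1, a sensory and autonomic neuron factor, at 24.9 CPM in Kelly cells, against 1.61 CPM in parental BE2C. LHX8, a LIM-homeodomain factor of forebrain cholinergic neurons, chosen after its values were seen, had 190 counts in Kelly, 2 in parental cells and 0 in each modified library.

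Of the listed cytokine, neurotrophic and signalling genes linked to the shift of sympathetic neurons towards acetylcholine, 3 of 18 tested were called higher with LMO1 and 5 lower. Of all 15480 genes tested, 15.9% were called higher and 15.1% lower. LIFR, the receptor for leukaemia inhibitory factor, was at 134 CPM with LMO1, against 219 CPM with vector, and fell by 0.70 (SE 0.0384, edgeR adjusted p = 3.49e-20). Its co-receptor IL6ST rose by 0.22 (SE 0.0309, edgeR adjusted p = 1.1e-07). GFRA2, the neurturin receptor, fell by 0.50 (SE 0.0518, edgeR adjusted p = 4.99e-11), and GDNF, a ligand of the same family, was at 5.05 CPM with LMO1, against 0.809 CPM with vector, and rose by 2.64 (SE 0.302, edgeR adjusted p = 8.71e-10). Parental cells had 4.50 CPM of GDNF, close to the LMO1 libraries, and 189 CPM of LIFR, 437 CPM of IL6ST and 95.1 CPM of GFRA2. VIP, the peptide stored with acetylcholine in cholinergic sympathetic neurons, was at 6.83 CPM in Kelly cells, against 83.3 CPM in parental BE2C. GFRA1, the GDNF-binding co-receptor, was at 80.4 CPM in Kelly, against 0.90 CPM in parental cells, and the signalling receptor RET was at 143 CPM in Kelly, against 877 CPM in parental cells. The noradrenergic genes of synthesis, storage and uptake rose in 9 of 11 cases with LMO1 and fell in 0, with a median log2 fold change of 0.49. DBH was at 84.4 CPM with LMO1, against 14.2 CPM with vector, and SLC18A1, a vesicular amine transporter, rose by 0.49 (SE 0.0419, edgeR adjusted p = 2.08e-13). Parental cells had 35.4 CPM of DBH, 2.49-fold the vector mean (95% counting interval 2.27 to 2.72). They had 177 CPM of SLC18A1, 1.31-fold the vector mean (1.27 to 1.35). For the 9 noradrenergic genes with at least 5 CPM in parental cells or vector, the median log2 ratio of parental to vector was -0.08. TH, the first enzyme of the pathway, was at 405 CPM in Kelly, against 3.08 CPM in parental cells.

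Genes with the most similar course over the 6 libraries were named by the smallest root-mean-square difference of centred log2(CPM + 1) values among 11692 genes. They were AGAP2, MEGF6 and GPR56 for CHAT (smallest difference 0.0833), and C11orf70, KBTBD11 and SAMD4A for SLC18A3 (0.137). They were SEC14L2, CCDC53 and CARD10 for ACHE (0.112), and SLC25A10, ATP6AP1 and LETM2 for CHRNB2 (0.0374). The added 1 CPM compresses low values such as those of ACHE (0.550 to 2.20 CPM). Its nearest gene SEC14L2 ran from 6.46 to 11.6 CPM, a smaller change in fold. CHRNB4 was closest to MARK2, KIAA1671 and PRPF38B (0.0474), CHRNA3 to CAND1, KIN and GTPBP4 (0.0232), CHRNA5 to DNPEP, ZNF292 and CRKL (0.0328) and CHRNA7 to PDCD4, TIPRL and FKBP7 (0.0266). None of the members with a mean of at least 5 CPM was among these. CHAT's neighbour AGAP2, for example, ran from 1.10 CPM in BE2C to 27.9 CPM in Kelly.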

How the data were processed

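RNA of 6 cell-line samples was column-purified and sequenced as stranded, paired-end total RNA libraries, per the labels' protocols. The deposited table holds raw counts of reads per gene symbol, made by the authors, with 1 column per library; TopHat2 2.0.6, HTSeq and hg19 are named in the submitters' processing notes, while its annotation and strand setting are not given in the sources used here. The test was that of edgeR 4.0.16 under R 4.3.3 (TMM, filterByExpr, quasi-likelihood F test, Benjamini-Hochberg over all 15480 genes tested, threshold 0.05), with SE taken as the log2 fold change over the root of F. It was checked on simulated data. Alternatives used limma 3.58.1, DESeq2 1.42.0, other scalings and filters, all 6 libraries and leaving out each library. Single-library ratios used log2 of CPM with 1 added, over genes of at least 5 CPM on either side, with exact 95% intervals that cover counting error only, as do the floors of 3 counts, since reads carried no molecular identifiers. Replicates did not agree within sampling noise (chi-square over its degrees of freedom was 2.91 between LMO1 and 2.75 between vector replicates). The labels do not say that replicates were separate cultures, so the p-values cover only how far these libraries vary, which may be technical. The members and lists were chosen with earlier results of these data known. Named were all members, up to 4 called genes of each further list by p, up to 3 by size of the Kelly ratio, and the 3 nearest courses; exceptions are marked. Some genes that the rule would name are not reported here.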

Additional observations from a re-analysis of the deposited data

How the results depend on the processing

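In the comparison of LMO1 with vector, 12 alternatives were run. No member changed direction in any of them. The count of all called genes, 4797, was 2970 with DESeq2 and 3493 to 3636 with 1 library left out. The count of members called higher, 5, was 1 with DESeq2 and 1 to 3 with 1 library left out. The count of members called lower, 1, was 0 with total counts in place of TMM and stayed at 1 with any library left out, but that 1 was CHRNB4 in place of CHRNA3 without vector replicate 2. Library numbers are shared between the groups but nothing in the labels says that they pair cultures. The deviations of same-numbered libraries had a correlation of -0.0209 over 15480 genes, and with the replicate number as a block 4847 genes were called, with 5 members higher and 1 lower. In Kelly against parental cells, the members at least 2-fold higher numbered 1, and 2 with the mean of the vector libraries as the reference, where CHRNB4 joined CHAT. The CHAT log2 ratio of 3.68 depended on the value added before the log, at 4.20 with 0.5 CPM and 2.11 with 5 CPM. No member was 2-fold different between parental cells and vector in any alternative. Depth limits CHAT and ACHE, with 8 to 66 counts in each BE2C library, and SLC5A7.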
